A study of Bos taurus with 10 samples.

Results

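The genes described here are tied to the step at which a bovine embryo starts to transcribe its own genome. They are ARGFX, LEUTX, ZSCAN4, ZSCAN5B, KDM4E and POLR2A, 6 genes chosen by name with earlier results of these data known. Of these, 4 were analysed among the 28781 gene symbols of the deposited table. ARGFX, POLR2A and ZSCAN5B each had 1 line, ZSCAN4 had 64 lines, and LEUTX and KDM4E were not analysed here. ARGFX, POLR2A and ZSCAN5B all passed the filter on low values, set at an average of 1 FPKM or more (fragments mapped to a gene, scaled to its length and to the library) over the 10 libraries.

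The embryos were bovine and came from zygotes injected with 1 of 2 kinds of small interfering RNA. Knockdown (KD) embryos had been given one that targets H1FOO, which encodes a linker histone made in the oocyte, and negative control (NC) embryos a control one. Poly(A) RNA was sequenced from 2 KD and 2 NC libraries of 8/16-cell embryos at 4 days after insemination, and from 3 KD and 3 NC libraries of morulae at 5.5 days. All embryos, NC ones included, had been injected, and the labels give no uninjected group, no number of embryos per library and no breed. Where fewer cells of a kind and less RNA per cell would give the same value, whole-embryo RNA cannot tell them apart, and FPKM is relative to the other transcripts of the library.

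An early embryo first lives on RNA and protein stored in the egg, and then starts transcription of its own genome while the stored RNA is cleared. In cattle the main wave of this activation falls around the 8-cell to 16-cell stage. Many genes of the wave are switched on briefly and fall again as the embryo compacts into a morula. ARGFX and LEUTX encode homeodomain transcription factors of the PRD-like class, whose human counterparts are expressed almost only in the cleaving embryo. ZSCAN4 and ZSCAN5B encode proteins with a SCAN domain and zinc fingers, and mouse Zscan4 is known from the 2-cell embryo and from telomere maintenance in embryonic stem cells. KDM4E is a demethylase of lysine 9 of histone H3, and POLR2A is the catalytic subunit of RNA polymerase II, which transcribes nuclear protein-coding genes.

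H1FOO itself stood at 0.0736 and 0.649 FPKM in KD and at 10.8 and 50.8 FPKM in NC 8/16-cell libraries, and at 0.0610 to 0.251 FPKM in KD and 0.294 to 2.17 FPKM in NC morulae. DPPA3, a marker of oocytes and early embryos, lay between 49.2 and 177 FPKM in all libraries. The 18 listed markers of cumulus or granulosa cells, which surround the egg in the follicle, summed to 168 to 177 FPKM in KD and 98.1 to 104 FPKM in NC 8/16-cell libraries, and to 65.5 to 141 FPKM in KD and 74.2 to 85.8 FPKM in NC morulae. Of the 18, FSHR, the follicle-stimulating hormone receptor of granulosa cells, was listed at 0 in every library, and the other 17 were not. CYP11A1, a steroidogenic enzyme, stood at 16.8 to 29.2 FPKM in KD and 6.996 to 7.85 FPKM in NC 8/16-cell libraries. LUM, lumican, stood there at 19.9 to 23.4 FPKM in KD and 0.944 to 4.24 FPKM in NC. In morulae CYP11A1 stood at 2.25 to 15.4 FPKM in KD and 0.149 to 3.77 FPKM in NC. LUM stood at 1.25 to 23.4 FPKM in KD and 0.202 to 6.89 FPKM in NC morulae. The treatments overlapped in both genes at the morula stage. The 13 of these markers that were tested had a median log2 difference of KD and NC of 0.52 at the 8/16-cell stage (9 positive, 4 negative) and 0.66 at the morula stage (10 positive, 3 negative), and none passed by limma. The summed FPKM ran from 345464 to 669836 per library. The microRNA genes MIR2887-1 and MIR2887-2 were listed at 45346 and 136037 FPKM in KD 8/16-cell replicate 1 and both at 18127 FPKM in KD 8/16-cell replicate 2, and at 0 in the other 8 libraries. They therefore go with the KD 8/16-cell group, and replicate 1, with the larger values, had the highest sum of all libraries.

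ARGFX was the steadiest of the genes at the 8/16-cell stage and fell towards the morula in NC embryos. It stood at 184 and 197 FPKM in KD and at 208 and 179 FPKM in NC 8/16-cell libraries, so the treatments overlapped there. In morulae it stood at 78.6, 125 and 162 FPKM in KD and at 61.9, 74.5 and 63.1 FPKM in NC libraries. All 3 KD morulae lay above all 3 NC morulae, KD replicate 1 by a narrow margin, and every morula lay below every 8/16-cell library. The order of the group means was 194 ± 21.1 FPKM in NC 8/16-cell embryos, 190 ± 8.70 in KD 8/16-cell embryos, 122 ± 41.6 in KD morulae and 66.5 ± 6.93 in NC morulae (SD, n = 2 at the 8/16-cell stage and 3 at the morula stage). Only the step between NC morulae and NC 8/16-cell embryos, which are not neighbours in that order, passed the test among the comparisons made for this gene.

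The log2 change of ARGFX between the stages was -0.70 (SE 0.26, limma adjusted p 0.0820) in KD embryos and -1.53 (SE 0.26, limma adjusted p 0.00255) in NC embryos. As a level, 63.9% of the 8/16-cell mean was left in KD morulae and 34.4% in NC morulae. The change in KD embryos passed once the replicate number entered the fit as a block (adjusted p 0.0325) and without KD morula replicate 3 (-0.93, adjusted p 0.0319), and in each case stayed negative. With the libraries rescaled to an equal sum the change in KD embryos was -0.23 (adjusted p 0.671), more than 1.5 times smaller. That setting moved the median change over all genes in KD embryos from -0.18 to 0.21. The median was -0.03 when the MIR2887 pair was also left out.

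At the morula stage the log2 difference of KD and NC in ARGFX was 0.81 (SE 0.24, limma adjusted p 0.0988), higher in 3 of 3 KD libraries and not past the threshold. With the replicate block it passed (adjusted p 0.0280), and likewise without KD morula replicate 1 (1.09, adjusted p 0.0268). At the 8/16-cell stage the difference was -0.02 (SE 0.29, adjusted p 1), with a 95% interval from -0.66 to 0.62. The difference between these effects, which is the test of whether ARGFX fell less in KD embryos, was 0.83 (SE 0.37, unadjusted p 0.0490, limma adjusted p 0.531). It did not pass, nor with the block (adjusted p 0.219).

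**Figure D1:**
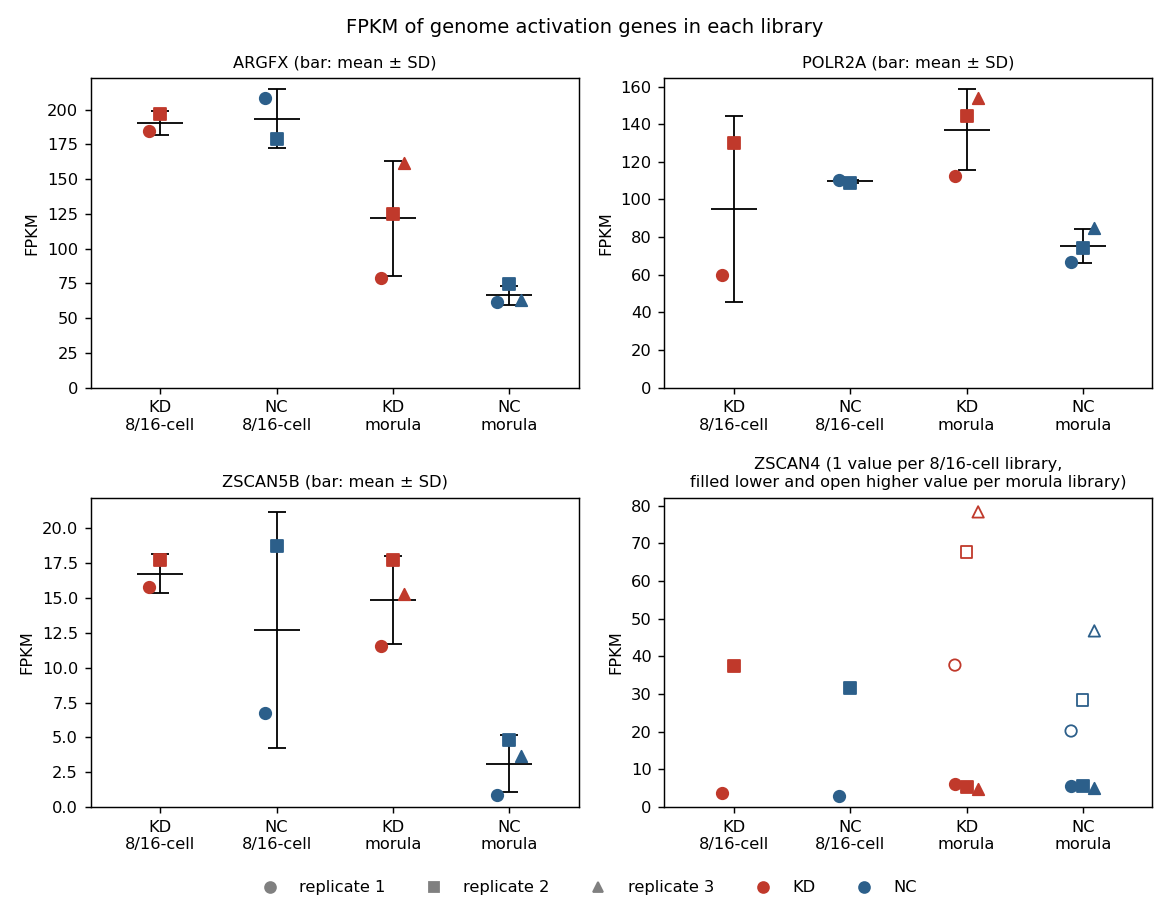
FPKM of ARGFX, POLR2A, ZSCAN5B and ZSCAN4 in each library, with 1 point per library, shapes for replicate numbers and bars for the group mean ± SD (n = 2 or 3). The 3 KD morulae lie above the 3 NC morulae in ARGFX, POLR2A and ZSCAN5B, and each ZSCAN4 morula library carries a lower value near 5 FPKM and a higher value from 20.2 to 78.3 FPKM.

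ZSCAN5B showed the widest gap between KD and NC morulae of the tested members. It stood at 11.5, 17.7 and 15.3 FPKM in KD morulae and at 0.836, 4.81 and 3.68 FPKM in NC morulae. The groups did not overlap. In 8/16-cell embryos it stood at 15.8 and 17.7 FPKM in KD and at 6.72 and 18.7 FPKM in NC libraries. The NC libraries of that stage were far apart, 1 below and 1 above the KD pair. The group means ordered as 16.8 ± 1.40 FPKM in KD 8/16-cell embryos, 14.9 ± 3.13 in KD morulae, 12.7 ± 8.48 in NC 8/16-cell embryos and 3.11 ± 2.05 in NC morulae (SD, n as above), and the first 3 did not differ beyond their spread.

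In KD embryos the log2 change of ZSCAN5B between the stages was -0.18 (SE 0.48, limma adjusted p 0.821), with 88.7% of the 8/16-cell mean left, and it turned positive under other scalings. In NC embryos ZSCAN5B fell by 1.74 on the log2 scale (SE 0.48, limma adjusted p 0.0210), and 24.5% of the mean was left in morulae. That call was lost without NC 8/16-cell replicate 2 (-1.07, adjusted p 0.212), without NC morula replicate 1 (-1.24, adjusted p 0.0539), with no filter on low values (adjusted p 0.0545) and with only the 2 groups fitted (adjusted p 0.0786). KD against NC gave 2.09 at the morula stage (SE 0.43, limma adjusted p 0.0587), a 4.78-fold ratio of the means. It passed with the block (adjusted p 0.00467), at a mean of at least 5 FPKM (adjusted p 0.0491) and without KD morula replicate 1 (2.25, adjusted p 0.0441). At the 8/16-cell stage the difference was 0.52 (SE 0.53, adjusted p 1; 95% interval -0.65 to 1.69), and the difference between the stages in this effect was 1.56 (SE 0.68, unadjusted p 0.0437, adjusted p 0.523).

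POLR2A followed another course, with its highest level in KD morulae. It stood at 113, 144 and 154 FPKM in KD and at 66.7, 74.0 and 84.7 FPKM in NC morulae, again without overlap. In 8/16-cell embryos it stood at 60.1 and 130 FPKM in KD and at 110 and 109 FPKM in NC libraries. The lone low value was that of KD 8/16-cell replicate 1, the library with the larger MIR2887 values. ARGFX stood at 184 FPKM and ZSCAN5B at 15.8 FPKM in that library. Whether its low POLR2A value goes with the MIR2887 values was not tested. In order, the means were 137 ± 21.6 FPKM in KD morulae, 110 ± 0.920 in NC 8/16-cell embryos, 95.04 ± 49.5 in KD 8/16-cell embryos and 75.1 ± 9.02 in NC morulae (SD, n as above).

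For POLR2A the log2 change between the stages was 0.61 (SE 0.28, limma adjusted p 0.149) in KD and -0.55 (SE 0.28, limma adjusted p 0.167) in NC embryos, and neither passed. KD morulae stood at 144% of the KD 8/16-cell mean, and NC morulae at 68.5% of the NC 8/16-cell mean. The change in KD embryos was 0.06 (adjusted p 0.892) without KD 8/16-cell replicate 1 and 1.16 (adjusted p 0.0321) without KD 8/16-cell replicate 2, so its size was set by which of those libraries was kept. KD against NC was 0.85 at the morula stage (SE 0.25, limma adjusted p 0.104; with the block 0.0275) and -0.31 at the 8/16-cell stage (SE 0.31, adjusted p 1). The difference between those effects was 1.16 (SE 0.40, unadjusted p 0.0155, limma adjusted p 0.479), the lowest p of this test among the members, and it was 0.61 (adjusted p 0.925) without KD 8/16-cell replicate 1.

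**Figure D2:**
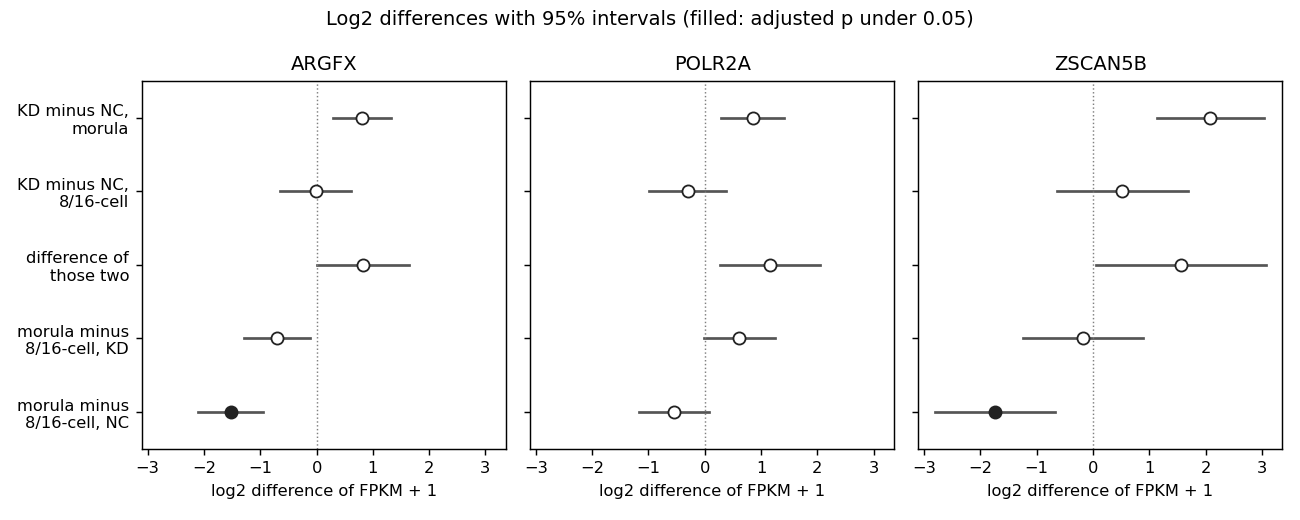
Log2 differences of FPKM + 1 for ARGFX, POLR2A and ZSCAN5B with 95% intervals, 1 row per comparison, filled where the limma adjusted p is under 0.05. ARGFX and ZSCAN5B passed in NC embryos between the stages (-1.53 and -1.74), while the KD minus NC intervals at the morula stage lie above 0 for all 3 genes without passing after adjustment.

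Read against all 11761 genes tested, the counts of members were as follows. For KD against NC at the morula stage 0 of 3 members passed as higher, where 0.145% of all genes passed as higher and 0.697% in either direction. All 3 members were higher in KD without overlap between the groups, which held for 8.44% of all genes. For the 8/16-cell stage 0 of 3 passed (0.017% of all genes), and no member was among the 514 genes with an unadjusted limma p under 0.05. The difference between those effects passed in 0 of 3 (0.017% of all genes), while all 3 were among the 1104 genes with an unadjusted limma p under 0.05. Between the stages in KD embryos 0 of 3 passed (20% of all genes, with 5.22% higher and 14.8% lower), and 1 of 3, ARGFX, was lower without overlap (36.7% of all genes). Between the stages in NC embryos 2 of 3 passed as lower (18.2% of all genes, with 12.6% higher and 30.8% in either direction), and 3 of 3 were lower without overlap (32.6% of all genes). With the replicate block 3 of 3 passed between KD and NC morulae (11.9% of all genes), 1 of 3 between the stages in KD embryos (32.1%) and 2 of 3 in NC embryos (41%). The comparisons of KD with NC and of morula with 8/16-cell share libraries, so these counts are not independent of each other. The members were also chosen with earlier results of these data known, so the shares describe them and are no independent support.

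How the calls over all genes split by direction depended on scaling. In KD embryos 614 genes were higher and 1741 lower in morulae as deposited, against 992 and 908 with median ratio scaling and 1072 and 257 with libraries rescaled to an equal sum, where the median over all genes was -0.18, -0.01 and 0.21. In NC embryos the split was 1484 higher and 2142 lower as deposited and 1857 and 1957 with quantile normalization. For KD against NC morulae it was 17 higher and 65 lower as deposited and 28 and 41 with quantile normalization. ARGFX was lower in morulae under each of these scalings in KD and in NC embryos, and ZSCAN5B was lower in NC embryos. Symbols on several lines repeat 1 value in every 8/16-cell column and not in every morula column, so the columns of the 2 stages may have been made apart, and a change between stages would include that.

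ZSCAN4 could be compared at the morula stage only. Its 64 lines pair every one of 2 values per morula library with every other, while each 8/16-cell library repeats 1 value. Nothing in the table says what the 2 values stand for, copies of the gene or otherwise. The lower of the values was nearly constant, at 6.21, 5.42 and 4.74 FPKM in KD and 5.50, 5.68 and 4.99 FPKM in NC morulae (log2 difference 0.01). The higher of the values was 37.7, 67.6 and 78.3 FPKM in KD and 20.2, 28.4 and 46.7 FPKM in NC morulae. The spread between libraries therefore lay in the higher value, which stood 6.07 to 16.5 times above the lower one in KD and 3.67 to 9.37 times in NC morulae.

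Summed over its values, which needs no choice between them, ZSCAN4 stood at 43.9, 73.1 and 83.1 FPKM in KD and at 25.7, 34.1 and 51.7 FPKM in NC morulae. The groups overlapped, since NC replicate 3 lay above KD replicate 1, but within each replicate number KD was higher, by 1.71, 2.14 and 1.61 times. The means were 66.7 ± 20.4 FPKM in KD and 37.2 ± 13.3 FPKM in NC (SD, n = 3 each), a log2 difference of 0.83 in a two-sided exact permutation test with p = 0.2, where the smallest p that 3 against 3 libraries allow is 0.1. With the replicate numbers as pairs, KD was higher in 3 of 3, and a two-sided exact sign-flip permutation test gave p = 0.25, the smallest that 3 pairs allow. At the 8/16-cell stage the single values were 3.72 and 37.5 FPKM in KD and 3.02 and 31.7 FPKM in NC libraries. In replicate 1 of each treatment the value lay below the lower values of the morulae, and in replicate 2 it lay within the range of their higher values. The columns may therefore not hold values of the same kind, and no change between stages is given. ZSCAN4 has 1 protein-coding entry in the ARS-UCD2.0 annotation, and whether the values come from separate copies was not tested. The division between the values is uncertain too.

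The lowest morula libraries were the same across the members. KD replicate 1 was the lowest KD library in ARGFX, POLR2A, ZSCAN5B and the ZSCAN4 sum, and NC replicate 1 was the lowest NC library in all 4. KD replicate 3 was the highest KD library in ARGFX, POLR2A and the ZSCAN4 sum, while KD replicate 2 was the highest in ZSCAN5B. RN18S1, an 18S ribosomal RNA gene, stood at 9053, 8553 and 11581 FPKM in KD and at 2704, 2983 and 8611 FPKM in NC morulae. NC replicate 3 overlapped with KD replicate 2, and the other NC libraries lay far below. The part of RN18S1 and of the cumulus and granulosa markers in the higher ARGFX, POLR2A and ZSCAN5B values of KD morulae was not tested.

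Among PRD-like and related homeobox genes ARGFX, DUXA and OTX1 fell in NC embryos and OTX2 rose. Of a list of 14, 5 were tested, ARGFX among them. Between the stages 1 rose and 1 fell in KD embryos (median -1.23, against -0.18 over all genes, of which 5.22% rose and 14.8% fell). In NC embryos 1 rose and 3 fell (median -1.43, against -0.07 over all genes, of which 12.6% rose and 18.2% fell). For KD against NC morulae none passed by limma (median -0.13, lowest adjusted p 0.0988), and with the replicate block 2 passed as higher, ARGFX and DUXA, and 2 as lower, GSC and OTX2, where 11.9% of all genes passed. The block also raised the count that fell between the stages in KD embryos to 4, ARGFX, DUXA, GSC and OTX1. Of all genes, 32.1% passed there with the block. With libraries rescaled to an equal sum no list gene passed as lower there, and the median over all genes was 0.21.

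DUXA, a double homeobox gene and the most abundant of the list per length, stood at 581 and 489 FPKM in KD and 448 and 399 FPKM in NC 8/16-cell libraries. KD lay above NC there, though the difference of 0.33 did not pass (limma adjusted p 1). In morulae it stood at 126, 238 and 385 FPKM in KD and at 54.2, 97.2 and 239 FPKM in NC libraries. KD and NC morulae overlapped in DUXA, with replicate 1 lowest and replicate 3 highest in each treatment. Its log2 change between the stages was -1.23 (SE 0.55, limma adjusted p 0.136) in KD and -1.96 (SE 0.55, limma adjusted p 0.0228) in NC embryos. KD against NC morulae gave 1.06 (SE 0.50, limma adjusted p 0.251).

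OTX1, an orthodenticle homeobox gene, fell by 1.47 on the log2 scale in KD (limma adjusted p 0.00392) and by 1.43 in NC embryos (limma adjusted p 0.00240). Its morula levels were 8.21 ± 1.46 FPKM in KD and 9.05 ± 1.05 FPKM in NC (SD, n = 3 each). OTX2, its relative that later marks the epiblast, ran the other way. It stood at 0.485 and 1.27 FPKM in KD and 5.44 and 1.61 FPKM in NC 8/16-cell libraries. In morulae OTX2 stood at 35.6, 18.6 and 4.62 FPKM in KD and at 71.9, 42.8 and 39.6 FPKM in NC libraries, a rise between the stages of 3.12 in KD (limma adjusted p 0.0111) and 3.63 in NC embryos (limma adjusted p 0.00316). The rise in KD embryos did not pass without KD 8/16-cell replicate 1. In KD morulae OTX2 and ARGFX ranked the libraries in opposite order.

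**Figure D3:**
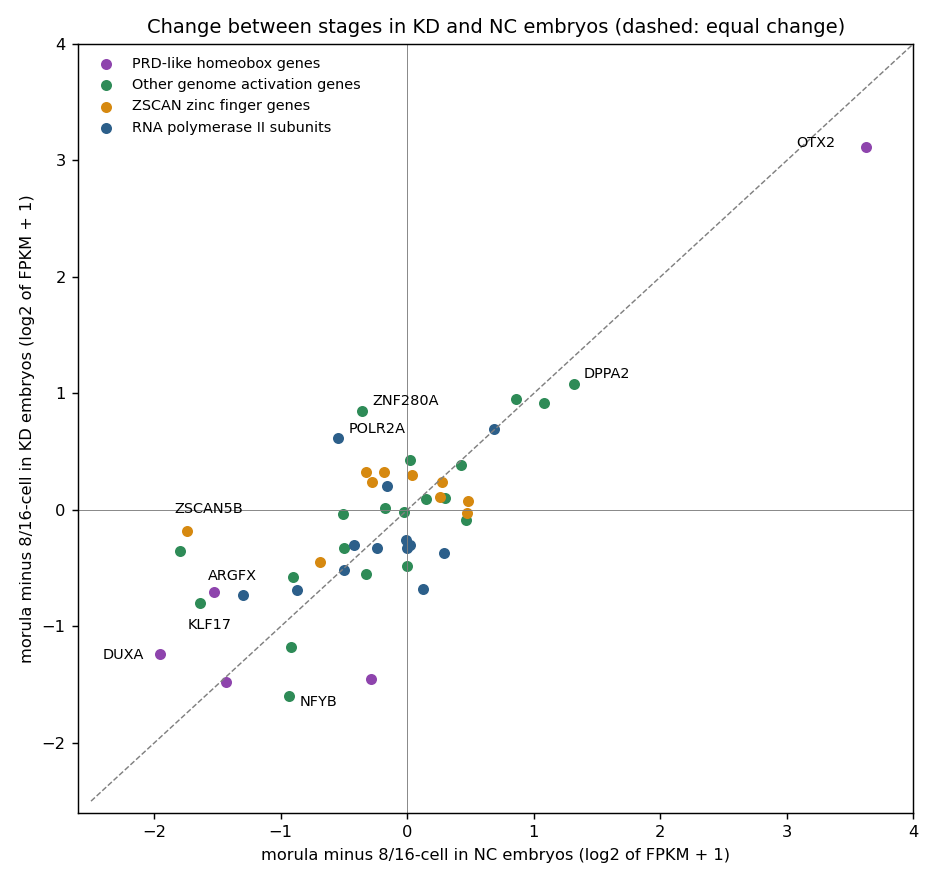
Log2 change from 8/16-cell to morula in KD embryos (vertical axis) against NC embryos (horizontal axis) for the tested genes of 4 lists, with a dashed line where both changes are equal. ARGFX (-0.70 in KD, -1.53 in NC), ZSCAN5B and KLF17 lie above the line, and OTX1 (-1.47 in KD, -1.43 in NC, not labelled) lies on it; no gene shown passed the test of the difference.

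In the ZSCAN family ZSCAN5B had the largest difference between KD and NC morulae. Of 16 listed genes 10 were tested, and ZSCAN5B was the 1 that passed in any comparison as deposited; with median ratio scaling and quantile normalization ZSCAN2 rose in NC embryos. With KD set against NC morulae, the log2 differences of the 10 ran from -0.35 to 2.09, with a median of 0.20 against -0.08 over all genes. Between the stages they ran from -0.45 to 0.33 in KD and from -1.74 to 0.48 in NC embryos. In the ARS-UCD2.0 annotation, used for names and order only, ZSCAN5B, DUXA and ZSCAN4 lie on the same chromosome, with 27 protein-coding genes between ZSCAN5B and DUXA and 28 between DUXA and ZSCAN4.

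POLR2A had the largest positive difference between KD and NC morulae among the subunits of RNA polymerase II. Of 13 subunits tested, POLR2A included, none passed for KD against NC morulae by limma (median 0.15 against -0.08 over all genes, 9 positive and 4 negative, lowest adjusted p 0.0724). With the replicate block POLR2A passed as higher and POLR2B, the second-largest subunit, as lower. In KD embryos none passed between the stages (median -0.33, lowest limma adjusted p 0.0522). With the block POLR2H rose and POLR2D, POLR2F and POLR2J fell there, 30.8% of the 13 against 32.1% of all genes. The median in KD embryos was 0.14 with libraries rescaled to an equal sum, where it was 0.21 over all genes. In NC embryos 1 of 13 rose (7.69%, against 12.6% of all genes) and 2 fell (15.4%, against 18.2% of all genes), shares near those of all genes, and the median was -0.16. POLR2E and POLR2F also fell with the block, where 38.5% of the 13 passed, against 41% of all genes. POLR2J, a small core subunit, stood at 96.1 ± 10.7 FPKM in KD and 67.7 ± 11.4 FPKM in NC morulae (SD, n = 3 each). It fell by 1.30 on the log2 scale in NC embryos (limma adjusted p 0.00320), and the value in KD embryos was -0.73 (limma adjusted p 0.0522). POLR2D, a subunit of the polymerase stalk, fell by 0.87 in NC embryos (limma adjusted p 0.0196), where POLR2H, a subunit shared by all 3 nuclear polymerases, rose by 0.68 (limma adjusted p 0.0475). The POLR2H call in NC embryos was lost with libraries rescaled to an equal sum and without KD 8/16-cell replicate 1, and in KD embryos POLR2H (0.69, limma adjusted p 0.0595) passed under each of the 4 other scalings.

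Among initiation and elongation factors of RNA polymerase II, as among all genes, more fell than rose between the stages. Of 50 tested, 3 rose and 12 fell in KD embryos (6% and 24%, against 5.22% and 14.8% of all genes; median -0.35). In NC embryos 1 rose and 14 fell (2% and 28%, against 12.6% and 18.2% of all genes; median -0.37). With libraries rescaled to an equal sum the order in KD embryos turned round, as it did over all genes. There 4 rose and 2 fell (median 0.10, against 0.21 over all genes). Without KD 8/16-cell replicate 1, which left 1 library in that group, the median was -0.40, against -0.20 over all genes. Between KD and NC morulae none passed by limma (median 0.00, lowest adjusted p 0.108; with the block 2 of 50 were higher, TBPL1 and SUPT4H1, where 11.9% of all genes passed). TBPL1, a relative of the TATA-binding protein, fell by 1.54 in KD (limma adjusted p 0.00331) and by 1.89 in NC embryos (limma adjusted p 0.000682). TAF4B, a TFIID subunit of the germ line, fell by 1.01 in KD (limma adjusted p 0.0163) and by 1.52 in NC embryos (limma adjusted p 0.00163). TAF3, another TFIID subunit, fell by 0.79 in KD (limma adjusted p 0.0109) and by 1.05 in NC embryos (limma adjusted p 0.00178). In KD embryos neither TAF4B nor TAF3 passed with libraries rescaled to an equal sum, with or without the MIR2887 pair. GTF2H2 and GTF2H1, also listed, kept less of the 8/16-cell mean in KD than in NC morulae (20.8% against 28.9% and 40.9% against 47.5%). Over the 50 genes the change in KD minus that in NC embryos was positive in 27 and negative in 23 (median 0.07), and none passed.

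In the lysine demethylase family, to which KDM4E belongs, more genes rose than fell between the stages, under every scaling tried. Of 21 genes tested, 6 rose and none fell in KD embryos (28.6% rose, against 5.22% of all genes; median 0.12), and KDM5C alone passed without KD 8/16-cell replicate 1. In NC embryos 8 rose and 1 fell (38.1% and 4.76%, against 12.6% and 18.2% of all genes; median 0.26). KDM4A, a broadly expressed demethylase of lysines 9 and 36 of histone H3, stood at 116, 111 and 73.0 FPKM in KD and at 142, 164 and 118 FPKM in NC morulae. It rose by 0.88 in KD (limma adjusted p 0.0230) and by 1.42 in NC embryos (limma adjusted p 0.00178). KDM5C, a demethylase of lysine 4 of histone H3, rose by 0.85 in KD (limma adjusted p 0.00518) and by 0.85 in NC embryos (limma adjusted p 0.00273). Between KD and NC morulae none of the 21 passed by limma (median -0.10, lowest adjusted p 0.147), and with the block 3 were lower, KDM2B, KDM3B and KDM4A (14.3%, near the 11.9% of all genes that passed).

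Other genes tied to genome activation did not move as 1 group. Of 22 tested, DUXA and OTX2 among them, 4 rose and 3 fell between the stages in KD embryos (18.2% and 13.6%, against 5.22% and 14.8% of all genes). Without KD 8/16-cell replicate 1, which left 1 library in that group, the median was -0.15, against -0.20 over all genes. With the block 5 rose and 5 fell (45.5% passed, against 32.1% of all genes). With libraries rescaled to an equal sum 6 rose and 1 fell. In NC embryos 4 rose and 8 fell (18.2% and 36.4%, against 12.6% and 18.2% of all genes). Between KD and NC morulae 0 of 22 passed by limma (median -0.20, 10 positive and 12 negative, lowest adjusted p 0.0562), and with the block DUXA, HSPA1A, KLF17, NFYA and ZNF280A were higher and NFYB, OTX2 and YAP1 lower, where 11.9% of all genes passed. ZNF280A also passed as higher with median ratio scaling (limma adjusted p 0.0473) and with quantile normalization (limma adjusted p 0.0437). DPPA2, a chromatin regulator of the early embryo, rose by 1.08 in KD (limma adjusted p 0.00651) and by 1.32 in NC embryos (limma adjusted p 0.00152), and NFYB, a subunit of the CCAAT-binding factor, fell by 1.60 in KD (limma adjusted p 0.00102) and by 0.93 in NC embryos (limma adjusted p 0.00498). ZNF280A, a zinc finger gene, stood at 20.0, 19.4 and 26.6 FPKM in KD and at 10.4, 10.5 and 9.69 FPKM in NC morulae. It rose between the stages in KD embryos (0.85, limma adjusted p 0.0292) and had a change of -0.36 in NC embryos (limma adjusted p 0.265), but the difference between those changes did not pass (1.21, limma adjusted p 0.439).

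KLF17, a Krüppel-like factor expressed in the early human embryo, had the profile most like that of ARGFX among 7194 genes that averaged 5 FPKM or more. Likeness was the root mean square difference of centred log2 values over the 10 libraries, 0.18 for KLF17 against a median of 0.71 over all candidates. KLF17 stood at 226 and 211 FPKM in KD and 216 and 196 FPKM in NC 8/16-cell libraries, and at 84.7, 147 and 157 FPKM in KD and 49.8, 71.4 and 79.0 FPKM in NC morulae. Its change between the stages was -0.80 in KD (limma adjusted p 0.0653) and -1.64 in NC embryos (limma adjusted p 0.00240), and KD against NC morulae gave 0.92 (SE 0.25, limma adjusted p 0.0841). ID1, an inhibitor of helix-loop-helix transcription factors (0.18), and BUD23, a methyltransferase of 18S ribosomal RNA (0.19), came next for ARGFX.

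For ZSCAN5B the nearest were the prostacyclin synthase gene PTGIS (0.44), C1QL1 (0.49) and the gap junction gene GJA1 (0.52), against a median of 1.14, so no candidate came as near to ZSCAN5B as KLF17, ID1 and BUD23 did to ARGFX. Between the members themselves the values were 0.64 for ARGFX and POLR2A, 0.74 for ARGFX and ZSCAN5B and 0.89 for POLR2A and ZSCAN5B. These values share the libraries and their scaling and are a description.

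**Figure D4:**
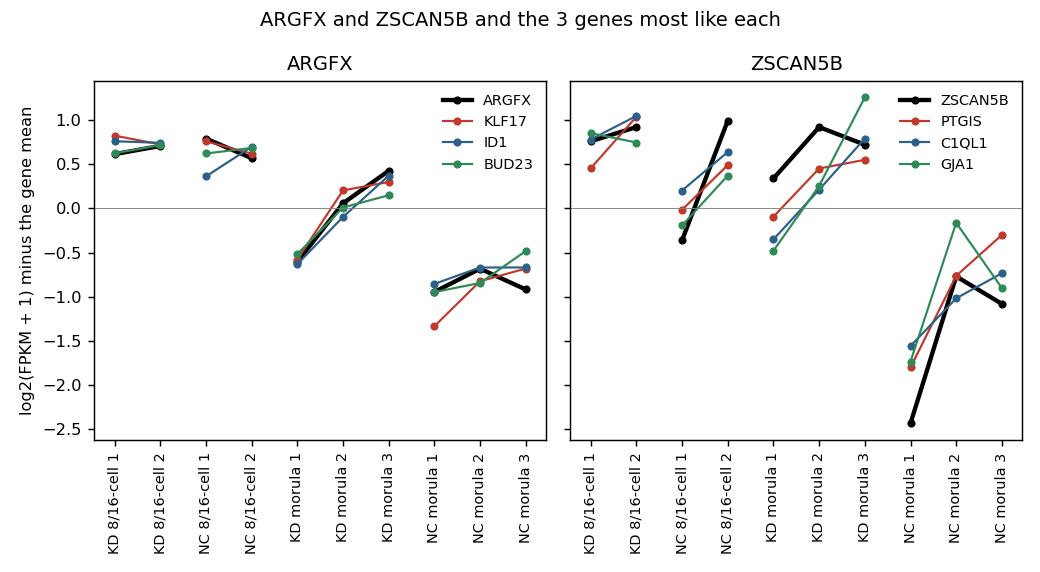
Log2(FPKM + 1) minus each gene's mean over the 10 libraries for ARGFX and ZSCAN5B (black) and the 3 genes with the nearest profile to each (coloured), with 1 point per library and lines joining the libraries of a group. KLF17, ID1 and BUD23 follow ARGFX through all groups (root mean square difference 0.18 to 0.19), while the genes nearest to ZSCAN5B lie 0.44 to 0.52 away.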

How the data were processed

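Per the labels' protocols, poly(A) RNA was captured on oligo(dT) beads before library preparation (Picopure extraction, NEBNext Ultra reagents); strand is not stated, so reads of antisense partners cannot be told apart. The submitters' processing notes name Trimmomatic, HISAT2, featureCounts and Cufflinks and the builds ARS-UCD1.2 and bosTau9, without versions or roles. The deposited values are FPKM per gene and library, made by the authors; all 10 columns were matched to samples by title. Of the symbols, 81 stood on several lines (11211 of 39911 lines) with 1 repeated value per 8/16-cell library, and were left out of the fit, which left 28700 genes. Low values shared no common step between libraries (the commonest ratio to NC 8/16-cell replicate 1 held for at most 1.17% of low genes in 8 of the other 9 libraries), so the fragments behind a value and the depth of each library are unknown.

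Values were taken as log2(FPKM + 1), which understates changes of low genes. The 11761 genes averaging 1 FPKM or more were fitted in R 4.3.3 with limma 3.58.1 (4 group means, limma-trend, 6 residual degrees of freedom). P-values are two-sided with Benjamini-Hochberg adjustment over the whole table, and the threshold was 0.05. The code was tested on simulated data. The labels do not say that libraries came from separate collections, so the p-values cover the variation among libraries only, which may be technical. The main fit had no block, so its p-values are unpaired, and the block on replicate numbers was an alternative. In morulae a KD and an NC library of one number departed from their group means together (r across genes 0.370, 0.325 and 0.312 for the 3 numbers). Libraries of unlike numbers were not compared in this way. At the 8/16-cell stage r was 0.0558 for both numbers, since with 2 libraries per group replicate 2 mirrors replicate 1. This r cannot decide whether libraries of one number share more than the number at that stage. The block was set within each stage.

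The members, the lists and the tests were chosen with earlier results of these data known. Named besides the members were genes of a list that passed in any comparison (at most 5 per list and comparison), H1FOO as the target, and the 3 nearest profiles to ARGFX and to ZSCAN5B (those to POLR2A are not reported here); RN18S1, the MIR2887 genes, FSHR, CYP11A1, LUM and the genes that passed only in an alternative (GSC, ZSCAN2, POLR2B, POLR2E, POLR2F, SUPT4H1, KDM2B, NFYA and YAP1), with HSPA1A, were named after their values were seen. The sperm markers summed to 0.441 to 0.842 FPKM in KD and 2.83 to 6.38 FPKM in NC 8/16-cell libraries and 8.39 to 12.9 FPKM in KD and 5.11 to 9.83 FPKM in NC morulae, and the blood markers to 95.9 to 114 FPKM in KD and 101 to 119 FPKM in NC 8/16-cell libraries and 135 to 240 FPKM in KD and 107 to 158 FPKM in NC morulae. Nearly all of the blood sum was HBA (94.8 FPKM or more in every library), while the other 6 blood markers stayed under 2 FPKM each. Alternatives were other pseudocounts, filters and scalings, no trend, only the groups compared, the replicate block and each library left out; a group left with 1 library was assumed to vary like the others. Of the genes on 1 line, 85.9% had a symbol in the ARS-UCD2.0 annotation, which was used for names and gene order only. No sequences were printed.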

Additional observations from a re-analysis of the deposited data

How the results depend on the processing

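For KD against NC morulae 82 genes passed by limma, and the count was 6 with no filter, 139 at a mean of at least 5 FPKM, 3 with libraries rescaled to an equal sum, 9 when the MIR2887 pair was also left out (a setting chosen after seeing the data), 0 with only the 2 groups fitted (2131 genes at an unadjusted p under 0.05), 1398 with the replicate block and 0 to 527 without 1 library. The members that passed there numbered 0, against 1 at a mean of at least 5 FPKM, 3 with the replicate block and 0 to 2 without 1 library. At the 8/16-cell stage 2 genes passed, against 11 with no filter, 1 with only the 2 groups fitted, 0 without the MIR2887 pair (412 unadjusted by limma) and 2 to 9 without 1 library. For the difference between these effects 2 genes passed, against 32 with the block, 0 without the MIR2887 pair (825 unadjusted by limma) and 2 to 6 without 1 library; no member passed in any of the 20 alternatives, though ARGFX (0.59 to 1.28), POLR2A (0.61 to 1.71) and ZSCAN5B (0.89 to 2.24) stayed positive in each.

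Between the stages in KD embryos 2355 genes passed, against 1329 with an equal sum, 1330 without the MIR2887 pair, 3774 with the block and 693 to 2698 without 1 library, and 0 members, against 1 with the block and 0 to 1 without 1 library. In NC embryos 3626 genes passed, 1406 to 3657 without 1 library, and 2 members, against 1 with no filter, 1 with only the 2 groups fitted and 1 to 2 without 1 library. ARGFX kept its fall in NC embryos in all 21 alternatives (adjusted p 0.000825 to 0.0340). Signs turned for ZSCAN5B in KD embryos between the stages with an equal sum (0.26), median ratio scaling (0.016) and quantile normalization (0.011). At the 8/16-cell stage signs of KD against NC turned without 1 library, where the range was -0.13 to 0.092 for ARGFX, -0.86 to 0.24 for POLR2A and -0.15 to 1.2 for ZSCAN5B. None of these values had passed. The ZSCAN4 sum gave 0.60 to 1.10 without 1 library and 0.94 for its higher value (exact permutation p 0.2 to 0.3; settings chosen after seeing the data, as was its pairing). The replicate block changed no other call of a member; the cause of these shifts was not tested. Unknown depth leaves the counting error of the low ZSCAN5B values in NC morulae without a bound.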
